A study of Mus musculus with 2 samples.

Results

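The NF-kB and Toll-like receptor signalling genes described here are a list of 45 mouse genes that carry a microbial signal from the cell surface or endosome to the NF-kB transcription factors, out of 21887 protein-coding genes placed on chromosomes 1 to 19, X and Y. Each gene was taken by its symbol, all 45 were matched, and every H3K27ac summit within 1 kb of an outer end of the gene, or in the gene or within 10 kb of it, was collected. Positions are on mm10, and the lower and upper end of a gene are its ends with the smaller and the larger coordinate. H3K27ac is acetylation of lysine 27 on histone H3, a mark of active promoters and enhancers. The list was divided by role into 8 Toll-like receptors, 12 adaptors and ubiquitin ligases, 12 kinases with the regulatory subunit of the IkB kinase, 5 NF-kB subunits, and 8 inhibitors and regulators.

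Toll-like receptors bind microbial products such as lipoproteins, flagellin and nucleic acids. Through the adaptors MyD88 and TRIF they recruit IRAK kinases and TRAF ubiquitin ligases, which activate the kinase TAK1 and then the IkB kinase complex. That complex marks the IkB inhibitors for destruction and so frees NF-kB dimers to enter the nucleus, where they switch on inflammatory genes and also genes of their own inhibitors. Macrophages of the colon live beside gut bacteria and are known for a muted inflammatory response to them.

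The Tle4cKO library came from C57BL/6 mice with a floxed Tle4 gene and Lyz2-Cre, and the WT library from C57BL/6 mice with Lyz2-Cre and no floxed Tle4 in their label, so both genotypes carry the recombinase. Tle4 belongs to the Groucho family of corepressors, which are brought to genes by DNA-binding proteins and silence them. Lyz2-Cre is active in macrophages, monocytes and neutrophils, so the deletion is not limited to the colon. The mice were males aged 11.1 weeks with no treatment in the labels, and Siglec-F-negative, Ly6C-low, CD64-positive colonic macrophages of 4 mice per genotype were sorted at one time and pooled by genotype. The mark was profiled by CUT&Tag, where a transposase bound through an antibody cuts out and tags the marked chromatin.

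Each genotype has 1 library, so differences between them have no replicate check and no test is given. The Tle4cKO list held 2350 summits on these chromosomes and the WT list 10474, and read depth is unknown. Fewer cells in a library and less acetylation per cell cannot be told apart. The score of a summit is the authors' value for that peak, taken here to be a −log10 of a p- or q-value, which the files do not state. Such a value grows with depth, so scores rank summits within a list and do not measure a change. A gene without a summit in a list was not called there and may carry signal below the calling threshold. Neither list had a summit within 10 kb of Tle4, so the summits do not check the genotype labels. Of 16 macrophage marker genes, 2 had a Tle4cKO summit within 10 kb (12.5%) and 9 a WT summit (56.2%), beside 11.6% and 39.2% of all protein-coding genes, so the Tle4cKO share of these markers is at the background. Csf1r, Adgre1, Cd68 and Fcgr1 had one in WT alone, Cd74 in both and Ptprc in Tle4cKO alone, while C1qa, C1qb, C1qc, Itgam and Lyz2 had none in either. Of 36 markers in 6 lists of epithelial, stromal, T, B, neutrophil and eosinophil genes, 1 had a Tle4cKO summit and 8 a WT summit within 10 kb. These were spread unevenly. Of 6 B and plasma cell markers, 1, Jchain, had a Tle4cKO summit (16.7%, beside 12.5% of the macrophage markers) and 3 a WT summit. In WT, 2 of 6 T cell markers had a summit, the epithelial, neutrophil and eosinophil lists had 1 gene each, and the stromal list had none. Of 7 dendritic cell markers, 2 had a Tle4cKO summit within 10 kb (28.6%) and 6 a WT summit (85.7%). Both shares were above those of the macrophage markers, on few genes. The part of other cell types in the results below was not tested.

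The promoter table of RefSeq on GRCm38.p6, the assembly behind mm10, held 51 promoters of 37 of the 45 genes, each running from 250 bases before to 50 after a transcription start. The first set shown holds the promoters of the 4 genes that had a summit of both libraries within 1 kb of a listed start, namely Traf6 (chr2:101678170-101678469, plus strand), Birc3 (chr9:7873121-7873420, minus strand), Ikbkg (chrX:74393041-74393340, plus strand) and the upstream start of Ripk1 (chr13:34002113-34002412, plus strand). Sequences are written 5′ to 3′ on the strand of the gene, and capitals mark the GC box, GGGCGG, on either strand.
Traf6: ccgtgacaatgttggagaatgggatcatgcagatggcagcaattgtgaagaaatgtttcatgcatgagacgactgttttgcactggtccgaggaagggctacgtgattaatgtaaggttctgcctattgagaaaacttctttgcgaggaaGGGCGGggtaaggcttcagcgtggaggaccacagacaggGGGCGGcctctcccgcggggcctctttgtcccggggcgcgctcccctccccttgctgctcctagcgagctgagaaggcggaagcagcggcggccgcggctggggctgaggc
Birc3: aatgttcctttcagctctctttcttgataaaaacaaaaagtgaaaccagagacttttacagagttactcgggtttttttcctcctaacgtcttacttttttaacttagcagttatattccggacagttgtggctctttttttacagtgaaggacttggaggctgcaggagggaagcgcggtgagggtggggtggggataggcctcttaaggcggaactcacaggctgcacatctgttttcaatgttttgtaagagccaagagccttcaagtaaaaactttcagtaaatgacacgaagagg
Ikbkg: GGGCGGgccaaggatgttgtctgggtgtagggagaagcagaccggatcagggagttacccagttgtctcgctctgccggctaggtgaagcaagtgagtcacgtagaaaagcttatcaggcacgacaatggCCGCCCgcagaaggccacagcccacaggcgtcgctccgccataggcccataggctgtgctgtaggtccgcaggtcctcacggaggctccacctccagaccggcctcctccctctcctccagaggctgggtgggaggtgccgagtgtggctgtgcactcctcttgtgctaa
Ripk1: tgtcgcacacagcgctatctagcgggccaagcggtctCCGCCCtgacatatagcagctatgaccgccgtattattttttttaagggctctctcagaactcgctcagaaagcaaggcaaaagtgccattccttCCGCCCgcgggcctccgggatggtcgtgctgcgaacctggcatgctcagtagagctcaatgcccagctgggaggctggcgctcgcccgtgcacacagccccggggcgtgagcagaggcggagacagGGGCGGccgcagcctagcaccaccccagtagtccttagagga

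The second set holds 5 promoters with a match to the NF-kB consensus, since NF-kB is known to induce its own subunits and inhibitors. They belong to Nfkbia (chr12:55492598-55492897, minus strand), Nfkb2 (chr19:46304487-46304786, plus strand), Rel (chr11:23770920-23771219, minus strand), Tnip1 (chr11:54962891-54963190, minus strand) and Tnfaip3 (chr10:19015361-19015660, minus strand). In these, capitals mark the matches to the NF-kB consensus on either strand, with overlapping matches run together.
Nfkbia: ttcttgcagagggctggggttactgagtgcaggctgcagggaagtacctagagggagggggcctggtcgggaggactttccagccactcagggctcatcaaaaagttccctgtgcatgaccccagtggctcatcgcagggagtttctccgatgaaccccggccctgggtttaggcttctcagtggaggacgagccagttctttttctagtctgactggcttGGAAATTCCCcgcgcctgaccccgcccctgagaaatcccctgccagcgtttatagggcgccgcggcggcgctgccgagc
Nfkb2: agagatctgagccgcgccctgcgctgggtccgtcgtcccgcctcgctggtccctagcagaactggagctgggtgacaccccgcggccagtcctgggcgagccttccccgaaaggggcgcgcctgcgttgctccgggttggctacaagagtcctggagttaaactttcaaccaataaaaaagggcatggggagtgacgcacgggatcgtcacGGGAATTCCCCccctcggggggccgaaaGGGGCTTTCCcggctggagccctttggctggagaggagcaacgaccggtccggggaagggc
Rel: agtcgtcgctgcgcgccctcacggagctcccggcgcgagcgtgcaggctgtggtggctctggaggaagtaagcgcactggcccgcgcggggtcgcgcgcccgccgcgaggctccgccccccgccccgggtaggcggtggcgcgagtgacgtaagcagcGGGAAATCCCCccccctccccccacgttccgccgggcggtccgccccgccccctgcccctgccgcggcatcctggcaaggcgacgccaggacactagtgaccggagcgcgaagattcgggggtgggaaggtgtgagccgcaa
Tnip1: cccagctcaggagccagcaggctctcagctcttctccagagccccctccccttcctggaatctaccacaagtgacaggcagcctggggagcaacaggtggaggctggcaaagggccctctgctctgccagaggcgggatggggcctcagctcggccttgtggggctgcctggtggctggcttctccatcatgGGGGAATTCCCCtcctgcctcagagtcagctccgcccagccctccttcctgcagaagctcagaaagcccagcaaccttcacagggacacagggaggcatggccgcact
Tnfaip3: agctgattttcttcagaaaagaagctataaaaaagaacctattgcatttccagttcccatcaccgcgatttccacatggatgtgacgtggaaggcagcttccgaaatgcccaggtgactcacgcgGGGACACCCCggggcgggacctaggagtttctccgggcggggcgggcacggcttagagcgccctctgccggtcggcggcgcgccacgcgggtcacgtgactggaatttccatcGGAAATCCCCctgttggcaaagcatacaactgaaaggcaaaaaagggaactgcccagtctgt

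In Tle4cKO a minority of these signalling genes had a summit in or near them, and in WT most did. In the gene or within 10 kb, 12 of the 45 genes had a Tle4cKO summit (26.7%, exact 95% interval 14.6 to 41.9%, counting error only) and 40 had a WT summit (88.9%, 75.9 to 96.3%). Over all protein-coding genes the shares were 11.6% in Tle4cKO and 39.2% in WT. All 12 genes with a Tle4cKO summit also had a WT summit, and 92.9% of all genes with a Tle4cKO summit did. Summits of both stood near 26.7% of the 45 genes and 10.8% of all genes, and a Tle4cKO summit alone near 0 of the 45 and 0.832% of all genes. Of the 40 genes with a WT summit, 30.0% (16.6 to 46.5%) were called in Tle4cKO, a share close to the 27.6% over all genes. Some of these summits lie nearer to another gene: 10 members were the nearest gene to a Tle4cKO summit and 36 to a WT summit. No share over all genes is given under this stricter rule, and the shares above are not its background. The 5 genes with no summit in either list were Tlr4, Tab1, Tab2, Irak1 and Tnfaip3.

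Gene ends gave the same order. Within 1 kb of an outer end, 6 genes had a Tle4cKO summit (13.3%, 5.05 to 26.8%) and 25 a WT summit (55.6%, 40.0 to 70.4%), beside 6.19% and 22.6% of all protein-coding genes. The 6 were Traf6, Birc3, Ikbkg, Ripk1, Relb and Nfkbiz, and each also had a WT summit there, as did 90.4% of all genes with a Tle4cKO summit at an end. Over all genes 5.60% had both. Of the 25 genes marked at an end in WT, 24.0% (9.36 to 45.1%) were marked in Tle4cKO, beside 24.7% of all genes marked in WT. None of the 45 had a gene-end summit in Tle4cKO alone, which 0.594% of all genes had.

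The WT list is the longer one. When the WT list was cut to its 2350 highest scores, the length of the Tle4cKO list, 12 of the 45 genes had a Tle4cKO summit within 10 kb and 13 a WT summit (28.9%, beside 12.8% of all genes), and 6 in each list had one at a gene end (13.3% in the cut WT list, beside 7.51% of all genes). The summits kept had a WT score of at least 6.37. Then 7 genes were called in both within 10 kb (6.11% of all genes), and 5 genes, Traf6, Birc3, Ikbkb, Ripk1 and Nfkbiz, were called in Tle4cKO alone (5.53% of all genes). These 5 are 41.7% of the 12 genes with a Tle4cKO summit, and the share over all genes with one was 47.5%. With summits scoring at least 5 in either list, 3 genes, Traf6, Relb and Nfkbiz, had a Tle4cKO summit (3.61% of all genes) and 23 a WT summit (20.9% of all genes) within 10 kb.

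The 45 genes were also longer by median. They had a median length of 24705 bp, ranging from 3239 bp in Nfkbia to 107315 bp in Nfkb1, while all protein-coding genes had a median of 17169 bp. Among the 16053 genes within this range, 12.9% had a summit of Tle4cKO and 43.8% one of WT within 10 kb, and 7.50% and 26.6% had one at a gene end. Their median length was 19217 bp, still below that of the 45 genes, so these shares are not matched for length.

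**Figure D1:**
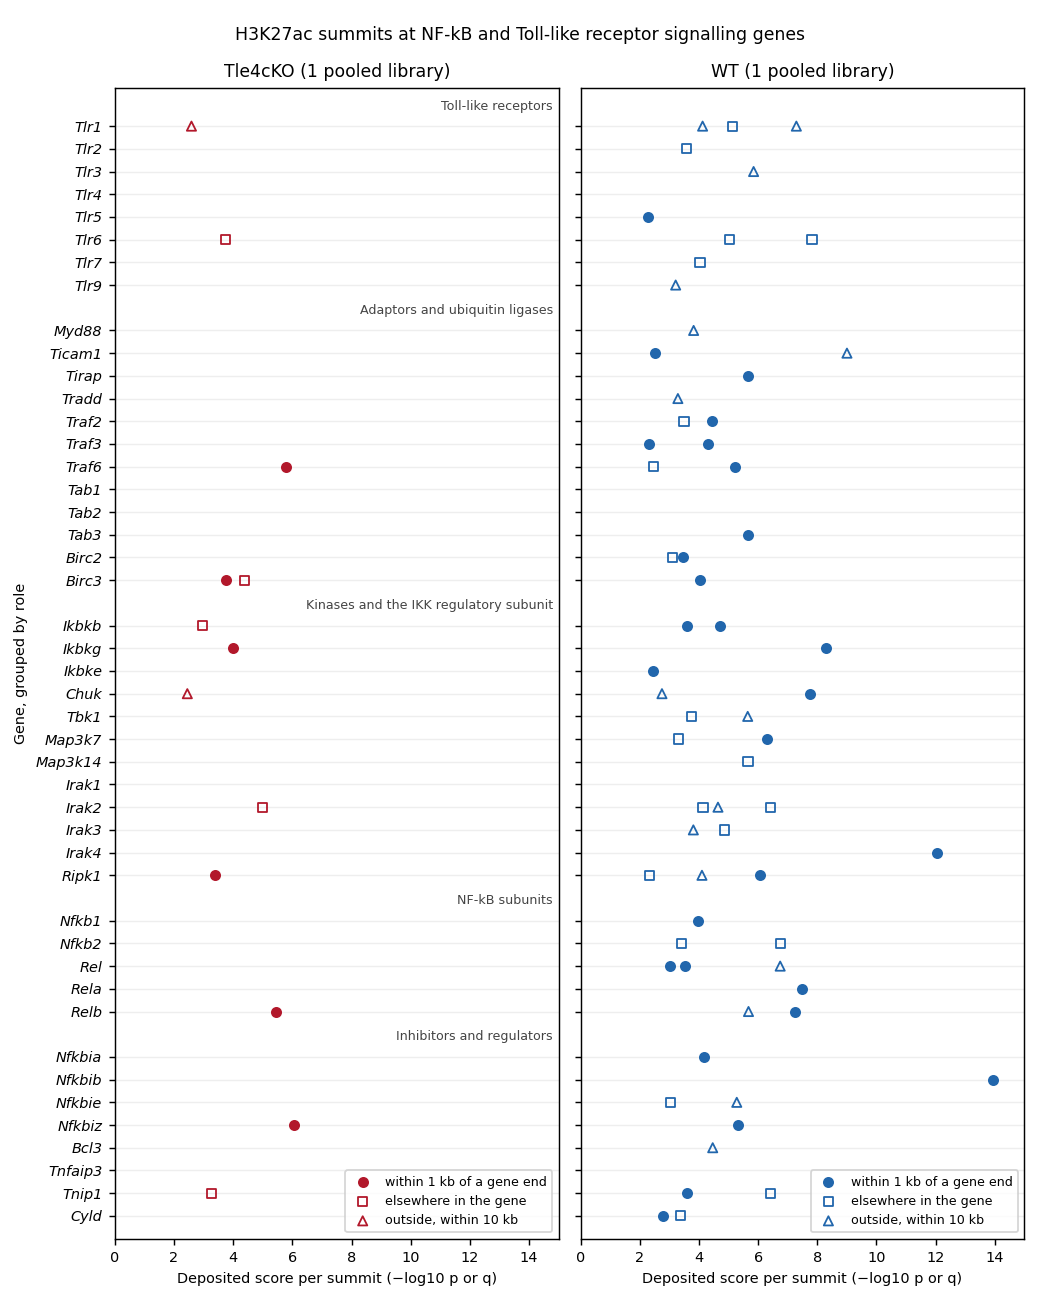
Every summit in or within 10 kb of the 45 genes, with Tle4cKO in the left panel and WT in the right. The x axis is the authors' score of each summit and the y axis lists the genes by role; filled circles lie within 1 kb of a gene end, open squares elsewhere in the gene and open triangles outside it. The 13 Tle4cKO summits score between 2.45 and 6.06 and the 64 WT summits between 2.28 and 13.9.

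Within 10 kb the Toll-like receptor genes were called at shares close to those of all 45 genes, 26.7% in Tle4cKO and 88.9% in WT. Of 8 receptors, 2 had a Tle4cKO summit (25.0%, 3.19 to 65.1%) and 7 a WT summit (87.5%, 47.3 to 99.7%). Over all protein-coding genes the shares were 11.6% and 39.2%. At gene ends 0 receptors had a Tle4cKO summit, beside 6.19% of all genes. Tlr5 alone had a WT summit there (12.5%, 0.316 to 52.7%, beside 22.6% of all genes). The gene-end count depends on the window: within 2 kb of an end, Tlr1 had a Tle4cKO summit (6.88% of all genes), and Tlr1, Tlr2, Tlr5 and Tlr6, 4 of the 8, had a WT summit (25.2% of all genes). Tlr1 and Tlr6, which pair with Tlr2 to sense bacterial lipoproteins and lie side by side on chromosome 5, were the receptors called in both libraries. Tlr6 (64953092 to 64970942) had a Tle4cKO summit with a score of 3.74 at 64961285 and a WT summit of 7.82 at 64961693. Both were inside the gene and 408 bp apart, at 1237 and 1645 bp upstream of a listed internal start. A second WT summit of Tlr6, with a score of 5.03, lay 1188 bp inside its upper outer end and within 1 kb of the end of the neighbouring Fam114a1.

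Tlr1 (64924680 to 64933600) had a Tle4cKO summit of 2.59 and a WT summit of 4.12, placed 101 bp apart and 1409 and 1510 bp outside its lower end, which is its downstream side. Its further WT summits scored 7.29, at 5809 bp outside the same end, and 5.15, at 114 bp inside the gene from a listed start. The region downstream of Tlr1 was the called one in both libraries, and the summit at its start was called in WT alone.

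The remaining receptors had a single WT summit or none. Tlr2, the lipoprotein receptor, had a WT summit of 3.57 inside the gene, 1691 bp from its start, and Tlr7, a receptor for single-stranded RNA, one of 4.03 inside the gene. Tlr5, the flagellin receptor, had a WT summit of 2.28 at 38 bp before its start, the lowest score among the WT summits of the 45 genes. Tlr3, a receptor for double-stranded RNA, had a WT summit of 5.85 at 4802 bp upstream of its start. The single WT summit of Tlr9, a receptor for unmethylated CpG DNA, scored 3.21 and lay closer to Alas1 than to Tlr9. Tlr4, the receptor for lipopolysaccharide on chromosome 4 (66827551 to 66846581), had no summit in either list.

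Among the adaptors and ubiquitin ligases, Traf6 and Birc3 were called in Tle4cKO within 10 kb (16.7%), and 10 of the 12 genes in WT (83.3%). Over all genes these shares were 11.6% and 39.2%. At gene ends, 2 had a Tle4cKO summit (16.7%) and 8 a WT summit (66.7%), beside 6.19% and 22.6% of all genes. Traf6 (chromosome 2, 101678420 to 101701668) encodes the ubiquitin ligase that links IRAK kinases to TAK1. Its Tle4cKO summit scored 5.77 at 212 bp inside the gene from its start, and its WT summit 5.22 at 361 bp, so that they lay 149 bp apart. A second WT summit of Traf6, with a score of 2.46, lay 20623 bp from the start.

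Birc3 (chromosome 9, 7847468 to 7873205) encodes the inhibitor of apoptosis protein cIAP2, a ubiquitin ligase of NF-kB signalling. It was the only one of the 45 genes with more Tle4cKO than WT summits in the 10 kb window. No share of all genes with such a count is given. Its Tle4cKO summits scored 3.75, at 181 bp inside the gene from its start, and 4.38, inside the gene at 22896 bp from the start. Its WT summit scored 4.02 at 394 bp from the start, 213 bp from the first of these. The WT summit nearest to the second Tle4cKO summit lay 13609 bp away, at the start of the neighbouring Birc2. Birc2, which encodes the related cIAP1, had WT summits of 3.46 at 141 bp from a listed start and 3.10 further inside, and no Tle4cKO summit.

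The adaptors of the receptors themselves were called in WT alone. Tirap, which bridges receptors to MyD88, had a WT summit of 5.66 at 35 bp from a listed start. Ticam1, which encodes TRIF, had a WT summit of 2.52 at 321 bp upstream of its start and one of 9.0 at 3199 bp outside its lower end, where Fem1a is nearer. Myd88, the adaptor of most Toll-like receptors, had a WT summit of 3.82 at 1154 bp upstream of its start, inside the neighbouring Acaa1a. The only summit near Tradd, the adaptor of the TNF receptor, was a WT summit of 3.29 at the end of B3gnt9. Traf2, a ligase of TNF receptor signalling, had WT summits of 4.45 at 42 bp from its start and 3.49 further inside. Traf3, a brake on the alternative NF-kB pathway, had WT summits of 2.30 and 4.32 on either side of its start, at 738 bp upstream and 685 bp inside.

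The TAB proteins, which carry TAK1 to ubiquitin chains, differed among themselves. Tab3 had a WT summit of 5.65 at 230 bp from its start, and Tab1 and Tab2 had no summit in either list.

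Within 10 kb the kinase group had the most genes called in both libraries, with 5 of 12 in Tle4cKO and 11 of 12 in WT. Over all genes these shares were 11.6% and 39.2%. By median the kinase genes were also the longest group, at 43862.5 bp, beside 24493.5 bp for the adaptors. With 12 genes the exact intervals of the Tle4cKO share within 10 kb overlap widely, 15.2 to 72.3% for the kinases and 2.09 to 48.4% for the adaptors. At gene ends, 2 kinase genes had a Tle4cKO summit and 7 a WT summit, beside 6.19% and 22.6% of all genes. The kinases and the adaptors each had 2 genes with both there. All 3 subunits of the classical IkB kinase complex were among the genes with both, which 10.8% of all genes had. The Tle4cKO summits near Ikbkg and Chuk were nearest to Fam3a and Erlin1. With nearest-gene assignment only Ikbkb, Irak2 and Ripk1 of the kinase group kept a Tle4cKO summit. Tlr1 and Tlr6, Traf6 and Birc3, Relb, and Nfkbiz and Tnip1 kept theirs, so the lead of the kinase group depends on the assignment. Ikbkg, the regulatory subunit NEMO (X chromosome, 74393233 to 74456792), had a Tle4cKO summit of 3.99 at 231 bp and a WT summit of 8.31 at 271 bp upstream of its first listed start. They lay 40 bp apart, and both fell inside the overlapping end of Fam3a, so they cannot be assigned to one of these genes.

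Chuk and Ikbkb encode the catalytic subunits IKK-alpha and IKK-beta, and in neither gene did the summits of the libraries lie at the same place, taken as within 500 bp. Chuk (chromosome 19, 44073334 to 44107505) had a WT summit of 7.74 at 365 bp inside the gene from its start and no Tle4cKO summit there. Its Tle4cKO summit of 2.45 and a WT summit of 2.75 lay 548 bp apart at the end of the neighbouring Erlin1. Ikbkb (chromosome 8, 22659205 to 22706589) had a Tle4cKO summit of 2.96 at 5235 bp inside its upper end. Its WT summits scored 4.73, at 189 bp inside that end, and 3.58, at 894 bp outside the other end, and the nearest lay 5046 bp from the Tle4cKO summit.

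The IRAK kinases, which relay the signal from MyD88, showed 4 patterns. Irak4 (chromosome 15, 94543613 to 94568317), the first kinase to act, had a WT summit of 12.0 at 118 bp from its start, a place it shares with the end of Pus7l, and no Tle4cKO summit. Irak2 (chromosome 6, 113638467 to 113695026) had a Tle4cKO summit of 5.00 and a WT summit of 6.41 placed 79 bp apart, deep in the gene at 52587 and 52666 bp from its start. Irak2 also had WT summits of 4.14 inside the gene and 4.64 inside the upstream Vhl, and no summit within 1 kb of its start in either list. Irak3, which encodes an inhibitory pseudokinase, had WT summits of 4.86 inside the gene and 3.81 at the end of Tmbim4, and Irak1 had no summit.

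Ripk1 (chromosome 13, 34002225 to 34035170), a kinase of TNF receptor and TRIF signalling, had a Tle4cKO summit of 3.40 at 70 bp upstream of its first listed start and a WT summit of 6.05 at 194 bp inside, 264 bp apart. Both also lay in the overlapping end of Serpinb6a. Further WT summits of Ripk1 scored 2.33 inside the gene and 4.10 at the end of Bphl. The other kinases were called in WT alone. Map3k7, which encodes TAK1, had WT summits of 6.31 at 229 bp upstream of its listed start and 3.30 inside the gene. Map3k14, the kinase of the alternative pathway, had one of 5.66 inside the gene. The IKK-related kinases Ikbke and Tbk1, which activate interferon regulatory factors, had WT summits of 2.46 at 206 bp from the start of Ikbke, 3.74 inside Tbk1 and 5.65 in Xpot, which neighbours Tbk1.

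**Figure D2:**
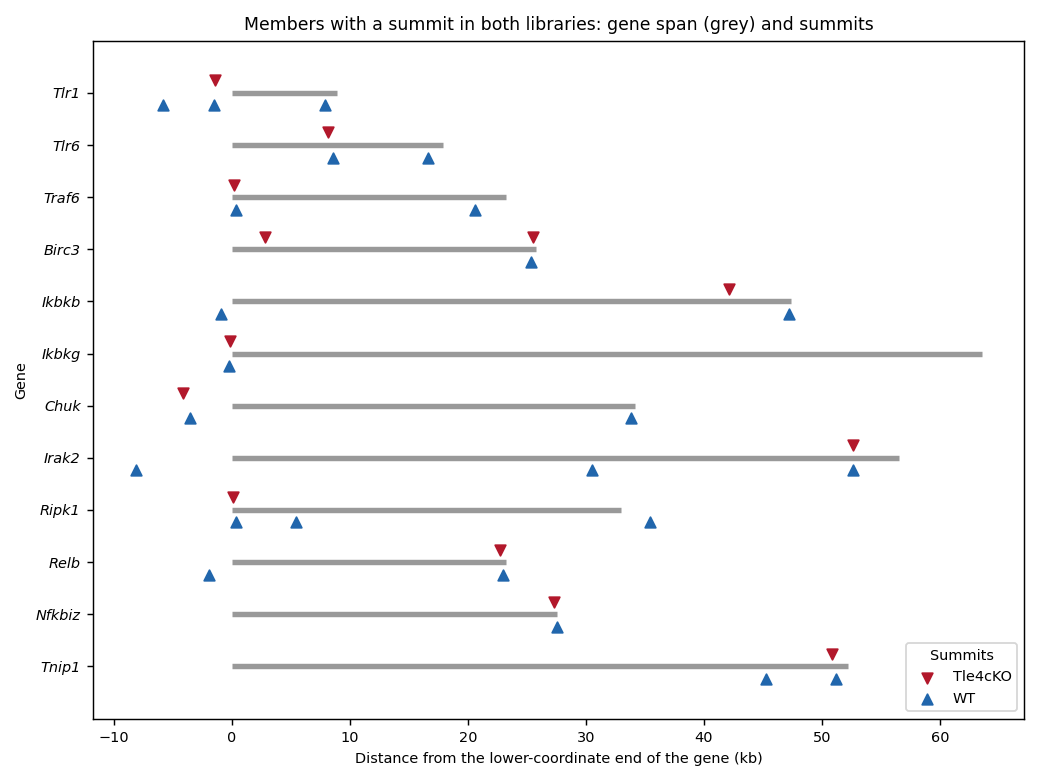
Maps of the 12 genes with a summit of both libraries within 10 kb. The x axis is the distance from the lower-coordinate end of the gene in kb, grey bars span the gene, red triangles above are Tle4cKO summits and blue triangles below are WT summits. In 10 genes a red and a blue summit lie within 500 bp; in Ikbkb and Chuk they do not.

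Within 10 kb, Relb alone of the 5 NF-kB subunit genes had a Tle4cKO summit (exact interval 0.505 to 71.6%), and all 5 had one in WT. Over all genes the shares were 11.6% and 39.2%. Of all genes called in WT, 27.6% were called in Tle4cKO, which lies inside the interval for 1 of 5. At gene ends, 1 had a Tle4cKO summit and 4 a WT summit, beside 6.19% and 22.6% of all genes. Relb (chromosome 7, 19606217 to 19629438), the subunit of the alternative pathway, had a Tle4cKO summit of 5.43 at 538 bp and a WT summit of 7.23 at 263 bp inside its upper end, 275 bp apart. Another WT summit near Relb, with a score of 5.67, lay in the neighbouring Clasrp.

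The other subunits were called in WT alone. Rela, the main activating subunit (chromosome 19, 5637442 to 5648134), had a WT summit of 7.48 at 388 bp upstream of its listed start. Nfkb2 had WT summits of 6.75 and 3.40, at 158 and 114 bp upstream of listed internal starts, although neither lay within 1 kb of an outer end. Rel, the subunit c-Rel, had WT summits of 3.53 and 3.04 at 397 bp inside and 675 bp upstream of its start, and one of 6.75 at 8046 bp upstream. Nfkb1, which encodes p105 and p50, had a WT summit of 3.96 at 85 bp inside its upper end.

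Of the 8 inhibitors and regulators, 2 had a Tle4cKO summit (25.0%) and 7 a WT summit (87.5%) within 10 kb. Over all genes these shares were 11.6% and 39.2%. At a gene end, 1 had a Tle4cKO summit (12.5%) and 5 a WT summit (62.5%), beside 6.19% and 22.6% of all genes. Nfkbiz (chromosome 16, 55811375 to 55838954), a nuclear IkB protein that acts as a cofactor for secondary NF-kB target genes, had a Tle4cKO summit of 6.06 at 303 bp and a WT summit of 5.33 at 18 bp inside its upper end. They lay 285 bp apart, and the Tle4cKO score was the highest of the 13 Tle4cKO summits. Tnip1 (chromosome 11, 54910787 to 54962956), which encodes a partner of the deubiquitinase made by Tnfaip3, had a Tle4cKO summit of 3.27 at 1344 bp and a WT summit of 3.60 at 968 bp inside the gene from its start, 376 bp apart. A second WT summit of Tnip1 scored 6.42 at 6861 bp from the start.

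The classical IkB genes were called in WT alone. Nfkbib (chromosome 7, 28758251 to 28766644), which encodes IkB-beta, had the highest score of the 45 genes, 13.9 at 290 bp from its start and within 1 kb of the end of Sirt2. Nfkbia (chromosome 12, 55489409 to 55492647), which encodes IkB-alpha, had a WT summit of 4.16 at 83 bp upstream of its start. Nfkbie, which encodes IkB-epsilon, had WT summits of 3.03 inside the gene and 5.28 at the end of Hsp90ab1.

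The 2 deubiquitinase genes differed from each other. Cyld had WT summits of 2.77 at 206 bp from its start and 3.36 further inside, and Tnfaip3, which encodes a feedback inhibitor of NF-kB, had no summit in either list. Bcl3, another nuclear IkB protein, had a single WT summit of 4.46 at 8524 bp upstream of its listed start.

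**Figure D3:**
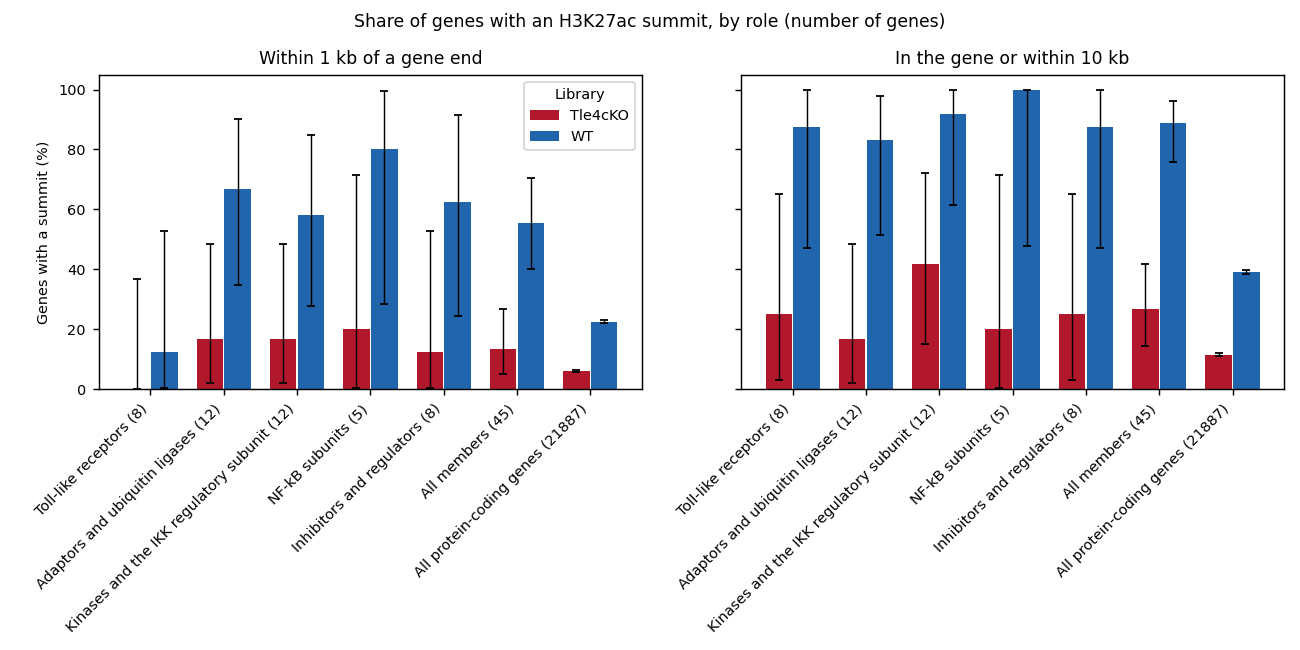
Share of genes with a summit, by role, for all 45 members and for all protein-coding genes, with Tle4cKO bars left of WT bars and the number of genes in brackets. Bars show percent of genes within 1 kb of a gene end (left panel) and within 10 kb (right panel), with exact 95% binomial intervals that cover counting error only. The WT bar is above the Tle4cKO bar in each group and window, and the intervals of the small groups are wide.

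At the level of summits, most Tle4cKO summits near these genes had a WT partner and most WT summits had none in Tle4cKO. Of the 13 Tle4cKO summits within 10 kb, 10 had a WT summit within 500 bp (76.9%, 46.2 to 95%), and of the 64 WT summits 10 had a Tle4cKO summit (15.6%, 7.76 to 26.9%). For summits near any protein-coding gene the shares were 81.3% and 18.4%. Counted by gene, 10 of the 45 had summits of both libraries at the same place, beside 9.70% of all genes. They make up 10 of the 12 genes with both, beside 89.8% of all genes with both. The number fell to 5 when 250 bp was required.

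The scores near these genes lay within the range of all summits. The 13 Tle4cKO summits had a median score of 3.75 and the 64 WT summits one of 4.24, beside 4.03 and 4.54 for all summits within 10 kb of a protein-coding gene. Among these signalling genes, only Nfkbib and Irak4 had a summit scoring at least 10, both in WT. In the whole lists 603 of 10474 WT summits and 156 of 2350 Tle4cKO summits scored at least 10. Such scores were therefore not more frequent near these genes than in the whole lists, without a test. Genes called in both libraries had the higher WT scores by median, without a test: the median of the highest WT score was 6.42 over the 12 with both and 4.66 over the 28 in WT alone. Over all genes the medians were 6.85 and 4.71. The order was not strict, since Nfkbib, Irak4 and Ticam1, with the 3 highest WT scores, had no Tle4cKO summit, while Birc3, with a highest WT score of 4.02, had 2.

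Repeated WT summits were common. In WT, 20 of the 45 genes had 2 or more summits within 10 kb, beside 11.7% of all genes, and Tlr1, Irak2, Ripk1 and Rel had 3. In Tle4cKO, Birc3 had 2 and no other gene more than 1.

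Of the 37 genes with a listed transcription start, 4 had a Tle4cKO summit within 1 kb of it (10.8%, beside 6.92% of all genes with a listed start) and 23 a WT summit (62.2%, beside 25.0%). The 4 genes, Traf6, Birc3, Ikbkg and Ripk1, had both. Of all genes with a Tle4cKO summit at a listed start, 91.8% had a WT summit too, and 6.36% of all genes with a listed start had both. Of the 4 closest Tle4cKO summits 2 lay inside the gene and 2 upstream, between 231 bp upstream and 212 bp inside. Of the 23 closest WT summits 16 lay inside the gene and 7 upstream, with a median of 141 bp inside and a range from 388 bp upstream to 968 bp inside.

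**Figure D4:**
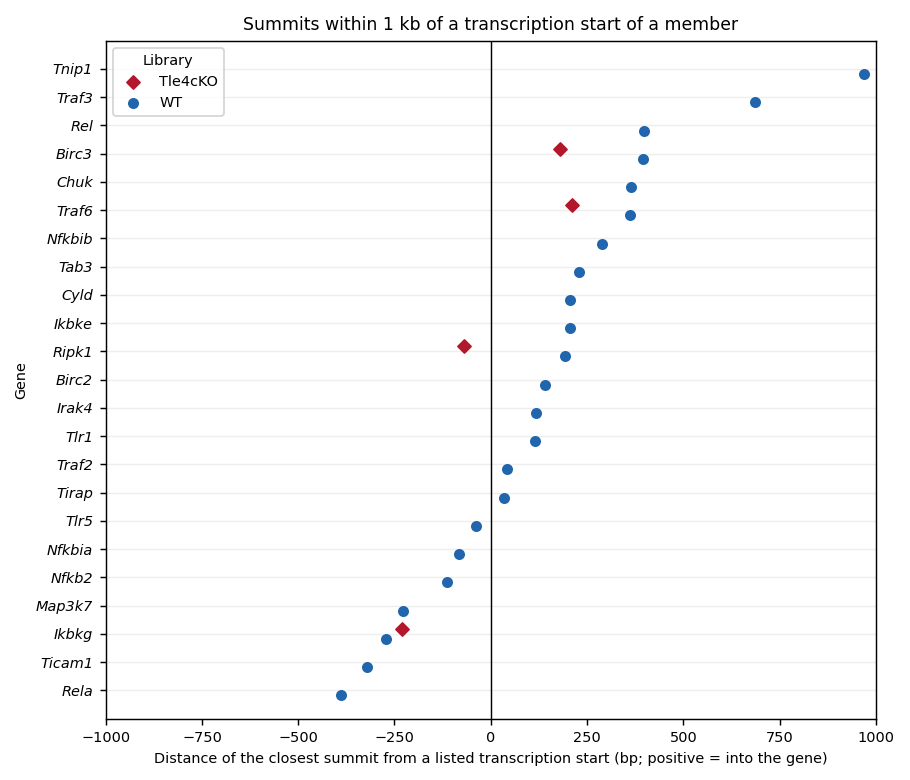
Distance of the closest summit from a listed transcription start for the 23 genes with one within 1 kb. The x axis is in bp, positive into the gene; red diamonds are Tle4cKO summits and blue circles WT summits. The 4 Tle4cKO summits lie within 250 bp of a start, and 13 of the 23 WT summits do.

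The promoters of these genes were compared with all promoters in the table for base composition and short motifs on both strands. The 51 promoters of these genes had a median GC content of 61.0% and a median ratio of observed to expected CpG of 0.73, beside 56.3% and 0.57 for the 21263 promoters of all protein-coding genes. Those with a Tle4cKO summit within 1 kb (5 promoters) and those with a WT summit (29 promoters) both had a median CpG ratio of 0.75, and the 22 with no summit had 0.59. The 2 promoters with no CpG at all, that of Tlr9 and an internal one of Ikbkg, had no summit within 1 kb in either list. Marked promoters were richer in CpG across the genome as well, with medians of 0.82 with a Tle4cKO summit, 0.81 with a WT summit and 0.42 with none.

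A match to the NF-kB consensus was found in 14 of the 51 promoters (27.5%), beside 4.81% of all promoters. The matches belonged to 12 genes, Nfkb2, Rel, Nfkbia, Nfkbie, Bcl3, Tnfaip3, Tnip1, Cyld, Map3k7, Traf3, Tlr2 and Tlr3. In Nfkbia the match began 29 bases before the start, and in Tnfaip3 matches began 125 and 12 bases before it. In Nfkb2 a pair of overlapping matches began 39 and 38 bases before the start and another began 11 bases before it. In Rel and Tnip1 the overlapping matches began 92 and 58 bases before the start.

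Set beside the summits, 0 of these 12 genes had a Tle4cKO summit within 1 kb of a listed start and 7 had a WT summit there. Over all genes with a match these shares were 5.99% and 27.1%, so 0 of 12 is near the background. Of the 25 genes with a listed promoter and no match, 4 had a Tle4cKO summit and 16 a WT summit at a start, beside 6.98% and 24.8% of all genes without a match. Within 10 kb, the 12 genes with a match had a Tle4cKO summit in 1 case, Tnip1, and a WT summit in 11, beside 11.3% and 44.0% of all genes with a match. The 25 without a match had them in 8 and 23 cases, beside 12.0% and 39.8%. No test was made of this difference, and a match is a run of letters and not evidence that NF-kB binds there.

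The other motifs were the GC box in 68.6% of the promoters (46.2% of all promoters), the ETS core CCGGAA in 31.4% (18.7%), the TATA box TATAAA in 7.84% (12.6%) and the CRE half-site TGACGT in 13.7% (8.49%). In the first promoter set shown, Ripk1 held 3 GC boxes at its upstream start, Traf6 and Ikbkg 2 each, and Birc3 none.

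Some summits lay close to the limits of the windows. At the limit of 1 kb, the Tnip1 WT summit at 984 bp (score 3.60) and the lower Ikbkb WT summit at 894 bp (3.58) fell inside. The Tnip1 Tle4cKO summit at 1360 bp (3.27), the Tlr1 Tle4cKO summit at 1409 bp (2.59) and WT summits at 1015 bp of Tlr1 (5.15), 1154 bp of Myd88 (3.82) and 1188 bp of Tlr6 (5.03) fell outside. At the limit of 10 kb, the Nfkbie WT summit at 9864 bp (5.28) fell inside. WT summits at 10059 bp of Tbk1 (3.28), 10493 bp of Tirap (6.67) and 10803 bp of Birc3 (3.46) fell outside.

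Further genes of the pathway, a list of 48 co-receptors, ligases, adaptors and regulators, had a Tle4cKO summit within 10 kb in 8 cases (16.7%, beside 11.6% of all genes) and a WT summit in 33 (68.8%, beside 39.2%). At gene ends 4 had a Tle4cKO summit (8.33%, beside 6.19% of all genes) and 23 a WT summit (47.9%, beside 22.6%). Rnf31, the catalytic subunit of the linear ubiquitin ligase complex, had a Tle4cKO summit of 4.44 and a WT summit of 8.50 that lay 163 bp apart just outside its lower end, beside Psme2. Rbck1, another subunit of that complex, had summits of 2.93 in Tle4cKO and 3.73 in WT at its end, 233 bp apart. The third subunit gene, Sharpin, had summits of 3.35 in Tle4cKO and 5.25 in WT nearby, but both were nearest to Cyc1.

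Fbxw11, which encodes an F-box protein that recognises phosphorylated IkB, had a Tle4cKO summit of 3.85 and a WT summit of 7.25 at its lower end, 51 bp apart. Map3k3, a kinase upstream of NF-kB, had Tle4cKO summits of 3.01 and 3.86 and also 4 WT summits. One of these WT summits, with a score of 3.17, lay 196 bp from the Tle4cKO summit of 3.86. Traf5 had a Tle4cKO summit of 4.39 with a WT summit of 3.84 at 94 bp from it. Ticam2, the adaptor that links Tlr4 to TRIF, had summits of 5.63 in Tle4cKO and 6.84 in WT only 5 bp apart, outside the gene. Peli1, a ubiquitin ligase that acts on IRAK kinases, was called in Tle4cKO alone, with a score of 3.23 inside the gene. The highest WT scores of this list were those of Ripk2 (8.67), the kinase of NOD receptors, Rnf31 (8.50) and Hsp90b1 (8.28), a chaperone of Toll-like receptors whose summit lay nearer to Ttc41.

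Of 34 NF-kB target genes, 3 had a Tle4cKO summit (8.82%) and 20 a WT summit (58.8%) within 10 kb, and at gene ends 1 had a Tle4cKO summit (2.94%) and 9 a WT summit (26.5%). The shares over all genes were 11.6% and 39.2% within 10 kb and 6.19% and 22.6% at gene ends. The WT gene-end share of the target genes lay near the background. Their lower Tle4cKO shares rest on 3 and 1 genes, and the difference from the background was not tested. Cflar, which encodes a caspase-8 inhibitor, had a Tle4cKO summit of 2.87 and a WT summit of 5.36 near its lower end, 102 bp apart. Ier3, an early response gene, had summits of 2.85 in Tle4cKO and 4.38 in WT outside it, 86 bp apart. The summits near Tnf, 3.26 in Tle4cKO and 5.40 in WT, were nearest to Lta. The highest WT scores of the list were 7.56 inside Cd40, a receptor for T cell help, and 7.09 and 7.08 near Il23a and Il1a, where Pan2 and Ckap2l are nearer.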

How the data were processed

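For each library the authors deposited a list of summits, in which a scored position stands for a peak. Reads had been handled with cutadapt 1.14 and Bowtie2 2.2.5 on mm10, per the submitters' processing notes. For the peak caller, its control and the sequencing depth, nothing is stated in the labels or file headers. The deposited score was taken to be a −log10 of a p-value or q-value from its lowest values, just over 1.30. The files do not say which.

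Positions were counted from 1. The mitochondrial chromosome was left out, and no list of high-signal regions was applied. Gene spans came from RefSeq genes on GRCm38.p6, which give outer ends but no exons; strands and starts came from the RefSeq promoter table. Transcription may begin or stop at an outer end. Windows were 1 kb around an end and 10 kb around the gene, and a summit in several windows counted for each gene. Summits within 500 bp counted as the same place. Exact Clopper-Pearson 95% intervals cover counting error only. 

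The members, lists and windows were chosen with earlier results of these data known. All members are named, with neighbours at their summits and the list genes that had a Tle4cKO summit or one of the 3 highest WT scores. The alternatives changed windows, distances, score minimums, the length of the WT list and the gene assignment. The counting was checked on simulated summits, where 100 of 100 planted gene-end summits were recovered. Python 3.11.15, pandas 2.3.3 and scipy 1.17.1 were used.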

Additional observations from a re-analysis of the deposited data

Results flagged for a closer look

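Summits were also called on the mitochondrial chromosome, 2 in Tle4cKO and 4 in WT, which no comparison uses. The WT count of 4 is listed because it lies above 3, the limit set for counts outside the main measurement.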

How the results depend on the processing

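Counts of the 45 genes within 10 kb were 12 in Tle4cKO, 40 in WT and 12 in both, and at gene ends 6, 25 and 6. They stayed within 1.5 times with gene-end windows of 500 bp and 2 kb, with transcription starts only, with summits free of other gene ends, with gene windows of 0, 5 and 20 kb, and with nearest-gene assignment. At a score of at least 5 the counts within 10 kb were 3 in Tle4cKO, 23 in WT and 3 in both, and at gene ends 3, 12 and 3. At a score of at least 10 they were 0, 2 and 0 in both windows. With only as many WT summits as Tle4cKO had, taken by score, WT had 13 genes and both 7 within 10 kb, and WT had 6 and both 2 at gene ends, because fewer summits enter. The 10 genes with summits at the same place became 5 at 250 bp and 11 at 1 kb. The backgrounds over genes of the members' length range, genes with a Tle4cKO summit, genes with a motif match, and those under the other list length, score minimum and 2 kb window were chosen after seeing the data. The highest scores of single members were recomputed under these alternatives where the member kept a summit. Of these 241 values, 226 were identical and 15 differed. Members that lost their summit are not in this count. A score minimum or a list cut by score cannot change a highest score that is kept, so the identical values do not measure stability. No paired analysis was possible because each genotype has 1 library, and for the same reason no library could be left out. Depth is unknown, so a gene without a summit cannot be called unmarked.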
